A study of Mus musculus with 6 samples.

Results

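The nuclear receptors are a superfamily of transcription factors, and 46 of the 55860 genes in the deposited tables were taken as its members, by gene name. All 46 names matched 1 row each. Messenger RNA had been sequenced from mouse ovarian granulosa cells, the somatic cells that surround the oocyte and make steroid hormones, of 2 genotypes with 3 libraries each. The controls were Il22r+/+ and the other group Il22r-/-, lacking Il22r, the receptor gene of the cytokine interleukin-22. Cells of both groups had been separated on a density gradient and kept for 12 h in medium with 10% serum. The labels give no strain, age, ovarian stimulation or deleted exon, and do not say whether the libraries came from separate animals, so p-values measure only the spread between these 6 libraries. The comparison asks which receptor transcripts differ without the interleukin-22 receptor gene.

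Nuclear receptors share a zinc-finger domain that binds DNA and, in most members, a pocket that binds a small lipophilic ligand such as a steroid, a retinoid, a thyroid hormone or a fatty acid. Steroid receptors bind DNA as homodimers, while the thyroid hormone, retinoic acid, vitamin D and lipid-sensing receptors bind as heterodimers with a retinoid X receptor. In many of these heterodimers, bound ligand exchanges corepressor proteins for coactivators. In granulosa cells, SF-1 (Nr5a1) and LRH-1 (Nr5a2) drive genes of steroid synthesis, estrogen receptor beta (Esr2) acts in follicle growth, and the progesterone receptor (Pgr), induced by the ovulatory surge of luteinizing hormone, is needed for follicle rupture.

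Upstream sequences are shown for the NR5A and NR0B members that were called with at least a 2-fold change, because they lie close in function and moved in opposite directions: Nr5a2, which rose, and Nr0b2, which fell. Nr0b2 encodes SHP, a receptor without a DNA-binding domain that represses NR5A proteins. The bases come from RefSeq (GRCm38.p6), end just before the annotated start of the gene, and are written in the direction of transcription. Capitals mark AGGTCA, the core that most nuclear receptors bind, CACGTG, the E-box of clock and MYC proteins, and the spaced STAT letters TTCNNNGAA.
Nr5a2 (minus strand, chr1:136960449-136960698): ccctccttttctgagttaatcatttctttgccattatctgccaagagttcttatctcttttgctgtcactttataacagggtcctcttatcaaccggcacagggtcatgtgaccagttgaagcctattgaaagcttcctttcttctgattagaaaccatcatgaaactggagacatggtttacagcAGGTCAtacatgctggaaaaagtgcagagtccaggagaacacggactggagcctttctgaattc
Nr0b2 (plus strand, chr4:133553126-133553375): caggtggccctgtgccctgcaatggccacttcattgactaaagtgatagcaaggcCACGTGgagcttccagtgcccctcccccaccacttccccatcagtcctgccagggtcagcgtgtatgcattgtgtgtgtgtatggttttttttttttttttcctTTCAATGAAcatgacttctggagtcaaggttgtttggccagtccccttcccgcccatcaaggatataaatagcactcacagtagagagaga
The AGGTCA match of Nr5a2 began at base -64 and the matches of Nr0b2 at -91 (TTCNNNGAA) and -195 (CACGTG), counted from the start with no base 0, and none of them overlapped. Over windows that run from these upstream bases a little way past each start, 42 of the 46 members had an entry, which left out Thra, Nr3c1, Nr5a1 and Hnf4g. On either strand, AGGTCA stood in 11 of the 42 members (26.2%) against 18.1% of all 27025 genes in the table, CACGTG in 5 (11.9%) against 8.09%, and TTCNNNGAA in 6 (14.3%) against 9.55%. The stricter STAT letters TTCCNGGAA stood in no member window and in 1.35% of all genes. In Pgr and Rorb, which also changed by more than 2-fold, the window held none of these letters. A match describes the letters only.

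Counted reads ran from 17.4 to 17.7 M (M, mega-reads) in Il22r+/+ and from 14.9 to 18.1 M in Il22r-/-, where replicate 3 had the fewest, and the Il22r-/- libraries differed more among themselves (chi-square per gene 10.2 to 27.0 between pairs) than the Il22r+/+ libraries did (4.66 to 6.63). The granulosa marker list summed to 7680 to 8271 CPM (counts per mega-read) in Il22r+/+ and 6487 to 7323 CPM in Il22r-/-, lower in every Il22r-/- library, with 3 of 10 tested genes higher and 2 lower. Of its genes, Foxl2 fell from 191 to 138 CPM and Inha was not called. The aromatase gene Cyp19a1, a product of estrogen-making granulosa cells, was near 0 at 0.709 and 0.0219 CPM. Fshr and Amhr2, also on this list, were among the 3 called higher. Over the fits that left out 1 library, their log2 changes (Il22r-/- minus Il22r+/+) were 4.04 to 5.02 and 1.43 to 1.56. Fshr had fewer than 10 reads in at least 1 library. Markers of other cells differed between the genotypes. The macrophage list summed to 8.95 to 11.02 CPM in Il22r+/+ and 28.8 to 87.5 CPM in Il22r-/-, with 9 of 9 tested genes higher. The list for surface epithelium and mesothelium summed to 416 to 429 CPM and 79.4 to 90.5 CPM, with 5 of 8 lower. The stromal list summed to 684 to 704 CPM and 227 to 386 CPM (2 of 7 lower, 1 higher), smooth muscle to 267 to 322 CPM and 357 to 577 CPM (4 of 6 higher, 1 lower) and endothelium to 2.74 to 4.68 CPM and 5.12 to 9.34 CPM (2 of 3 higher). Oocyte markers stayed below 3.1 CPM in sum in every library. In the list for theca, the androgen-making cells outside the follicle, Cyp17a1 and Insl3 reached at most 0.179 CPM in any library. That list, which also holds genes of other steroid-making cells, summed to 5876 to 6106 CPM and 4949 to 6056 CPM, with 2 of 4 tested genes higher and 2 lower. The part of these cells in the receptor results was not tested, and in such bulk samples fewer cells of a type and less RNA per cell cannot be told apart.

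Of the 46 receptor genes, 42 had at least 1 read, 34 had enough reads to be tested and 26 were expressed, which is taken here as at least 1 FPKM (fragments per kilobase and mega-read) in all 3 libraries of a genotype. With a minimum of 0.5 FPKM the number was 28, and with 2 FPKM it was 23. The retinoid X receptor Rxrg, the brain and eye receptors Nr2e1 and Nr2e3 and the gut and liver receptor Hnf4g were not read at all. A pooled count of 0 limits their level to 0.0591 CPM for Il22r+/+ and to 0.0566 CPM for Il22r-/-, by counting error alone.

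SF-1 was the most abundant member in Il22r+/+ and stood level with estrogen receptor beta in Il22r-/-. Per length, Nr5a1 had 54.8, 51.3 and 55.2 FPKM in Il22r+/+ replicates 1 to 3 and 37.4, 33.9 and 38.1 FPKM in Il22r-/- replicates 1 to 3. Esr2 had 31.4, 29.8 and 29.0 FPKM in Il22r+/+ and 35.9, 34.9 and 38.0 FPKM in Il22r-/-. Every Il22r+/+ value of Nr5a1 was therefore above every value of Esr2, and in Il22r-/- the ranges of the 2 genes overlapped. Next in mean level over all libraries were 3 receptors of lipids. Pparg, the receptor of fatty acid derivatives that also directs fat cell formation, had 26.8, 30.9 and 32.5 FPKM and then 22.8, 31.1 and 32.5 FPKM. Nr1h2 (LXR beta, an oxysterol receptor) had 27.7, 26.2 and 29.1 FPKM and then 26.0, 25.9 and 28.0 FPKM. Nr1h4 (FXR, the bile acid receptor) had 16.9, 19.2 and 15.7 FPKM and then 31.9, 24.1 and 22.5 FPKM. The genotypes overlapped for Pparg and Nr1h2 and did not for Nr1h4. In Il22r+/+ the levels of Pparg, Esr2 and Nr1h2 overlapped one another, and in Il22r-/- those of Nr5a2, Pparg, Nr1h2 and Nr1h4 did. The mean level of Nr5a2 ranked 15 among the members in Il22r+/+ and 3 in Il22r-/-. Summed over all 46 members the level was 324 to 337 FPKM in Il22r+/+ and 319 to 335 FPKM in Il22r-/-, ranges that overlapped.

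**Figure D1:**
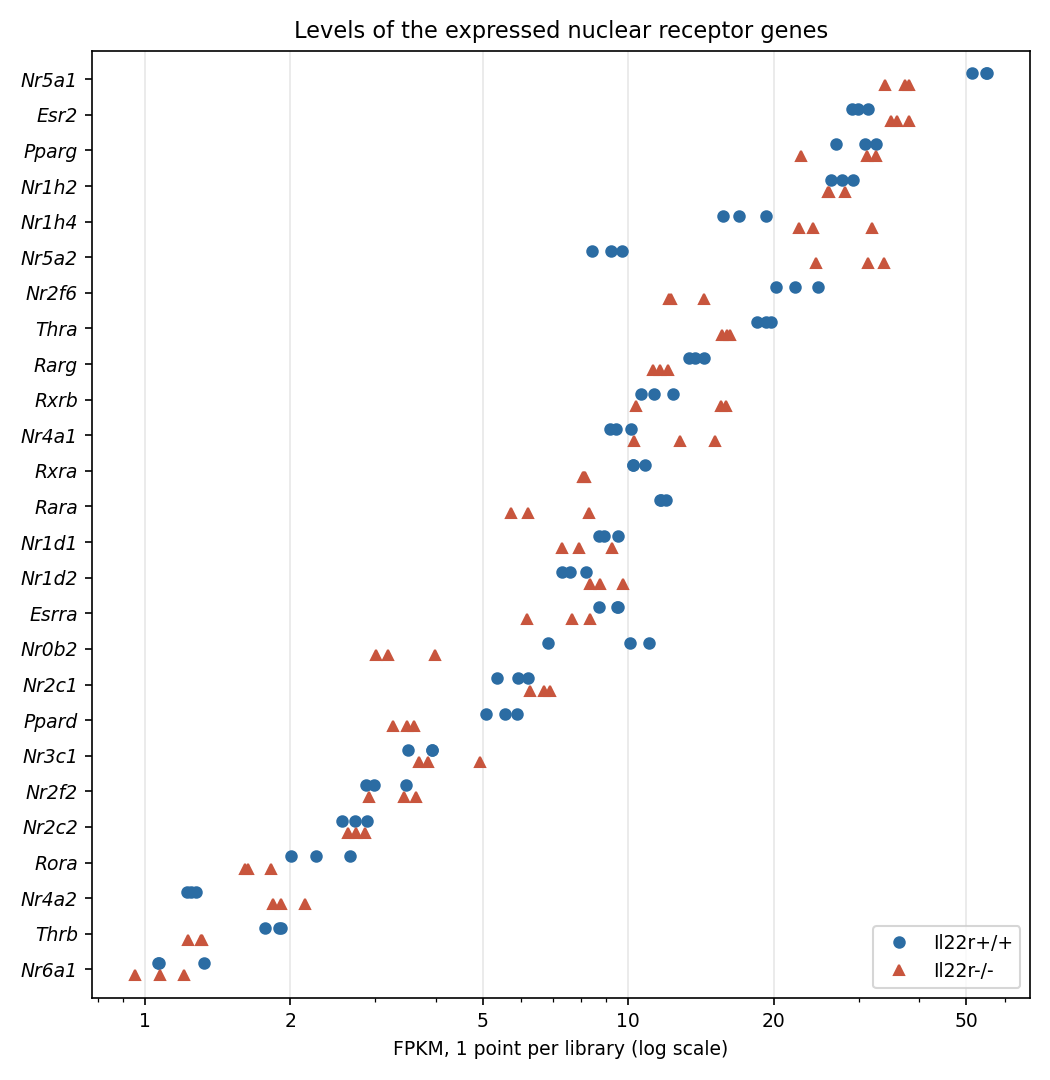
Level of each of the 26 expressed receptor genes (rows, ordered by mean) in FPKM on a log axis, with 1 point per library, circles for Il22r+/+ and triangles for Il22r-/-. Nr5a1 heads the list at 51.3 to 55.2 FPKM in Il22r+/+, and Nr5a2 shows the widest gap between the genotypes.

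By the edgeR quasi-likelihood test over all 15227 tested genes, 18 of the 34 tested receptor genes (52.9%) were called at a Benjamini-Hochberg adjusted p under 0.05, beside 45.7% of all tested genes. Of these, 8 rose (23.6% of all genes did) and 10 fell (22.1% of all genes did). The median log2 change, Il22r-/- minus Il22r+/+ throughout, was 0.01 over the tested members and 0.03 over all tested genes. Called changes of at least 2-fold numbered 4 (11.8% of members, 14.3% of all genes). Nr5a2, Pgr and Rorb rose that far, as 8.03% of all genes did, and Nr0b2 fell that far, as 6.3% did. The libraries of the 2 genotypes did not overlap in 22 of the 34 (64.7%), beside 56% of all tested genes. These shares lie near those of all genes. Of the 18 calls, 13 held in every alternative fit that gave them a value, and the other 5 (Thra, Rarg, Rora, Nr1d2 and Nr4a1) did not.

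**Figure D2:**
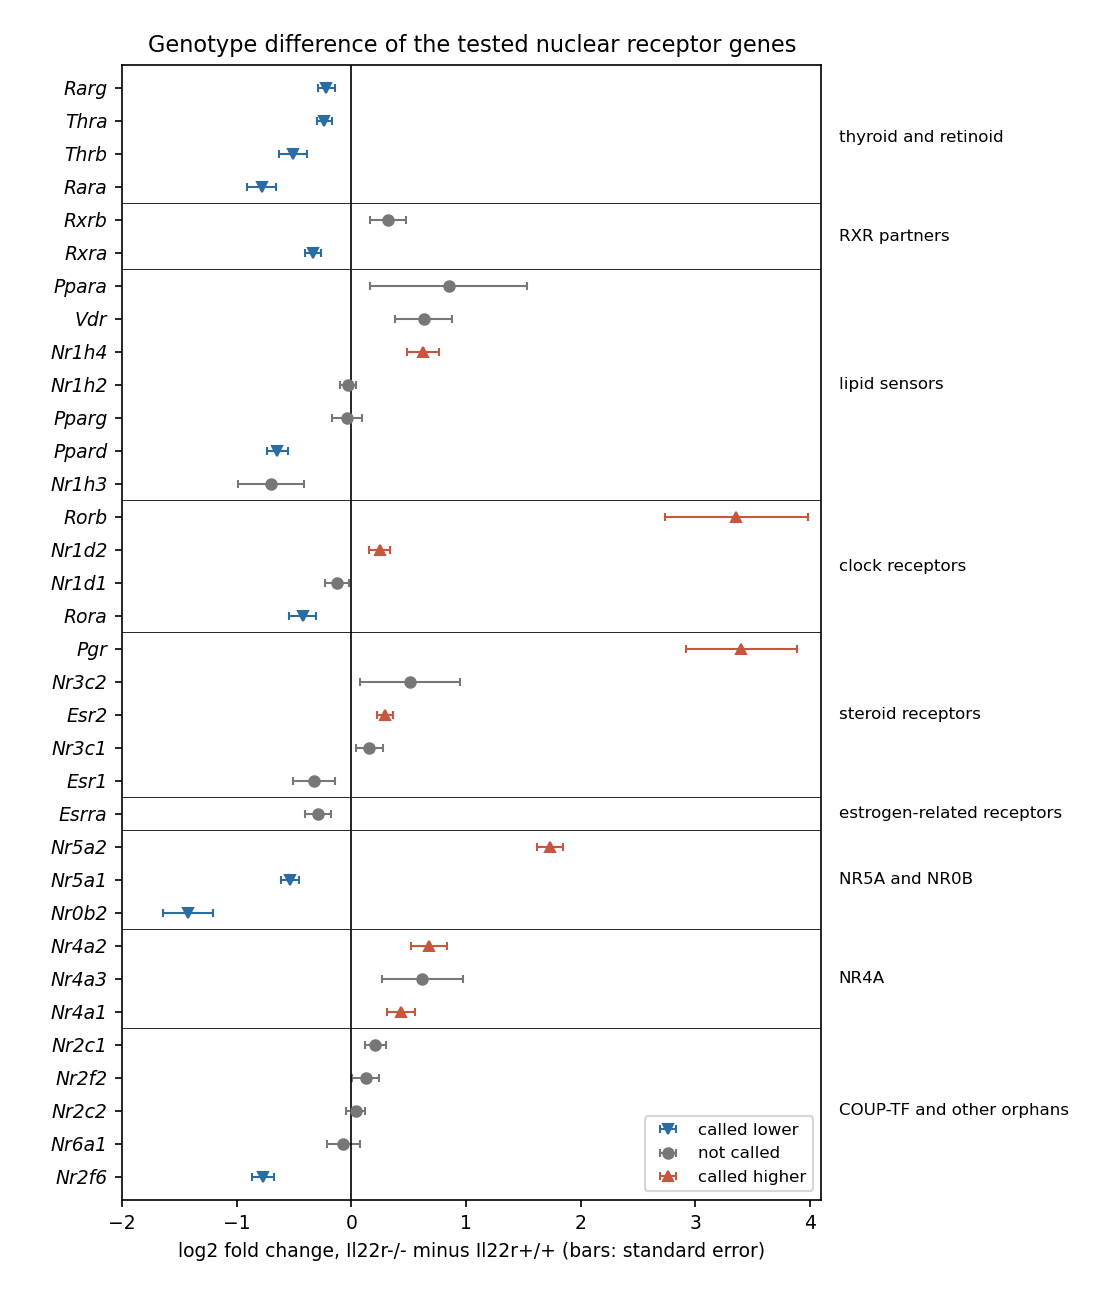
Log2 fold change (Il22r-/- minus Il22r+/+, bars are standard errors of the fit) of the 34 tested receptor genes, grouped by kind of receptor, with triangles for called genes and grey circles for genes that were not called. Pgr and Rorb lie beyond 3, Nr5a2 at 1.73 and Nr0b2 at -1.42, and the 4 tested thyroid hormone and retinoic acid receptors all lie below 0.

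The NR5A receptors changed in opposite directions. SF-1 and LRH-1 bind the same DNA element as monomers, and LRH-1 in granulosa cells is needed for ovulation and luteinization. Nr5a1 (ENSMUSG00000026751, mm10 chr2:38692656-38714542, minus strand) had 226, 212 and 228 CPM in Il22r+/+ and 159, 143 and 159 CPM in Il22r-/-, a log2 change of -0.53 ± 0.08 (standard error, edgeR adjusted p = 0.000271). Nr5a2 (ENSMUSG00000026398, chr1:136842571-136960448, minus strand) had 55.7, 48.5 and 52.7 CPM in Il22r+/+ and 144, 183 and 196 CPM in Il22r-/-, a log2 change of 1.73 ± 0.11 (edgeR adjusted p = 1.93e-06). In both genes all 3 libraries of a genotype lay on the same side of the other 3. Per length, the ratio of Nr5a1 to Nr5a2 was 5.91 ± 0.237 (SD, n = 3 libraries) in Il22r+/+ and 1.25 ± 0.247 in Il22r-/-. Their summed level was 62.9 ± 2.75 FPKM and 66.3 ± 5.09 FPKM, with overlapping libraries. The upstream window of Nr5a2 printed above held 1 AGGTCA.

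Of the atypical receptors that repress NR5A proteins, SHP fell. Nr0b2 (ENSMUSG00000037583, chr4:133553376-133556536, plus strand) had 12.2, 7.52 and 11.1 CPM in Il22r+/+ and 4.52, 3.57 and 3.35 CPM in Il22r-/-, a log2 change of -1.42 ± 0.22 (edgeR adjusted p = 0.00043) with no overlap. Nr0b1, which encodes DAX-1 and lies on the X chromosome, had no read in Il22r+/+ and 6, 4 and 0 reads in Il22r-/-. The exact 95% interval of the pooled ratio begins at 2.15-fold higher in Il22r-/- and covers counting error only. As 1 Il22r-/- library had no read, the genotypes overlapped.

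**Figure D3:**
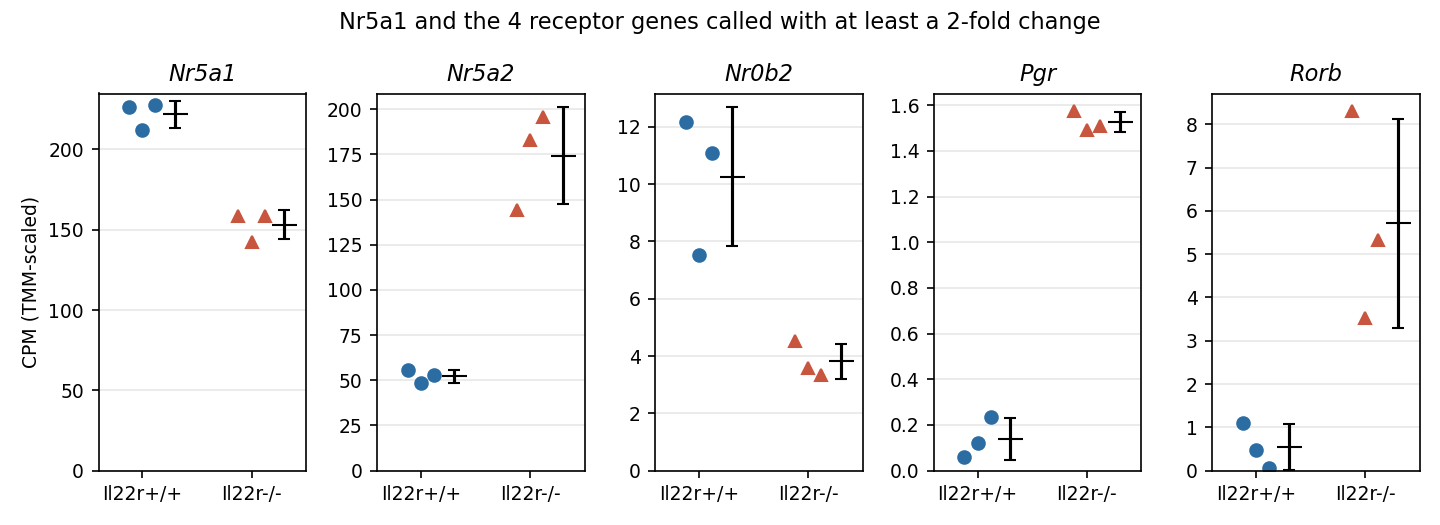
CPM in each library (circles Il22r+/+, triangles Il22r-/-) with the mean and SD beside them, for Nr5a1 and for the 4 receptor genes called with at least a 2-fold change, each panel on its own axis from 0. In all 5 panels the genotypes do not overlap, and Pgr stays at or below 1.58 CPM.

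Among the steroid hormone receptors, Esr2 and Pgr rose and the others were not called. Esr2 (ENSMUSG00000021055, chr12:76120419-76177259) had 103, 97.9 and 94.8 CPM in the controls and 121, 116 and 126 CPM without Il22r, higher in every library by a log2 change of 0.30 ± 0.07 (edgeR adjusted p = 0.00575). Esr1, estrogen receptor alpha, which in the follicle is mainly a theca receptor, had 6.90, 9.13 and 7.46 CPM and then 5.36, 6.14 and 7.29 CPM, overlapping ranges that were not called (edgeR adjusted p = 0.173). Esr2 thus made up 98.1% ± 0.310 and 98.7% ± 0.165 of the summed FPKM of the estrogen receptors. Pgr (ENSMUSG00000031870, chr9:8899833-8968611) had 0.0585, 0.119 and 0.237 CPM in Il22r+/+ and 1.58, 1.49 and 1.51 CPM in Il22r-/-. Its log2 change was 3.40 ± 0.48 (edgeR adjusted p = 0.000253), and 4.001 without Il22r+/+ replicate 3, which held 4 of the 7 Il22r+/+ reads. Although the change was large, the level of Pgr in Il22r-/- was 0.180 ± 0.00408 FPKM, below the 1 FPKM taken as expressed. Nr3c1, the glucocorticoid receptor, had 26.1, 29.4 and 29.4 CPM and then 28.4, 29.3 and 37.2 CPM, with overlap and no call (edgeR adjusted p = 0.303). The mineralocorticoid receptor gene Nr3c2 had 0.787 ± 0.378 CPM and 1.12 ± 0.355 CPM and was not called.

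The estrogen-related receptors are orphan regulators of mitochondrial genes that bind no estrogen. Esrra was the expressed member, with 40.7, 37.4 and 40.7 CPM in Il22r+/+ and 36.8, 33.4 and 26.8 CPM in Il22r-/-. These groups did not overlap, but the log2 change of -0.29 ± 0.12 missed the threshold (edgeR adjusted p = 0.0611) and passed it without Il22r-/- replicate 1 (0.0161), with DESeq2 (0.049), with DESeq2 size factors in edgeR (0.0432) and with no filter (0.0246). Esrrg had 1 read in Il22r+/+ and 3, 6 and 7 reads in Il22r-/- (pooled ratio 15.3, exact 95% interval 2.38 to 642 for counting error only), too few for the test. Esrrb had 3 reads in all, in Il22r-/- replicates 2 and 3.

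The 4 tested thyroid hormone and retinoic acid receptors were all called lower, beside 22.1% of all tested genes, though the calls of Thra and Rarg were lost in 3 and 7 of 16 alternatives. Rara (ENSMUSG00000037992, chr11:98927818-98974942) fell furthest, from 49.5, 51.0 and 49.3 CPM to 24.9, 26.8 and 35.5 CPM (log2 change -0.78 ± 0.12, edgeR adjusted p = 0.000475), with Il22r-/- replicate 3 nearest to the controls. Thrb fell from 13.4 ± 0.563 to 9.40 ± 0.340 CPM (log2 change -0.51 ± 0.12, edgeR adjusted p = 0.00624). The falls of Thra and Rarg were smaller, with log2 changes of -0.24 ± 0.07 and -0.22 ± 0.07, though neither overlapped between genotypes. Both calls were lost with library size as the only scaling (adjusted p = 0.14 and 0.247), a scaling that moved the median log2 change of all genes from 0.03 to 0.13. Thra also lost its call without Il22r+/+ replicate 1 or 3 (adjusted p = 0.0608 and 0.0635). Rarg lost it without Il22r+/+ replicate 1, 2 or 3 or Il22r-/- replicate 2 (0.129, 0.0625, 0.0816 and 0.0623), with no filter (0.0719) and with the replicate block (0.0622). The summed level of the group, Rarb included, was 46.6 ± 0.751 FPKM in Il22r+/+ and 35.6 ± 0.759 FPKM in Il22r-/-. Rarb, a retinoic acid receptor that is itself induced by retinoic acid, had 3 reads, all in Il22r-/- replicate 2, and 38.4% of its exon length is overlapped by genes of the other strand, mostly Top2b. Thra and Nr1d1 run towards each other and share 5.7% of the Thra and 8.55% of the Nr1d1 exon length. The strand setting of the counting is not given in the sources used here, so reads there cannot be assigned to either gene.

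The retinoid X receptors, obligate partners of many of the others, did not move together. Rxra fell from 66.5, 62.7 and 62.5 CPM to 51.1, 50.6 and 49.9 CPM, with a log2 change of -0.34 ± 0.07 (edgeR adjusted p = 0.00274) and no overlap. Rxrb had 47.7, 43.7 and 41.1 CPM in Il22r+/+ and 63.3, 61.2 and 40.4 CPM in Il22r-/- and was not called (0.32 ± 0.16, edgeR adjusted p = 0.133). In Il22r-/- replicate 3 the value of Rxrb lay below all 3 controls, and without that library Rxrb was called higher (log2 change 0.48, adjusted p = 0.000192), as it was with no filter (0.00458). The level of Rxrb as a share of the summed FPKM of the 3 genes was 52.3% ± 1.11 in Il22r+/+ and 62.8% ± 5.64 in Il22r-/-.

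**Figure D4:**
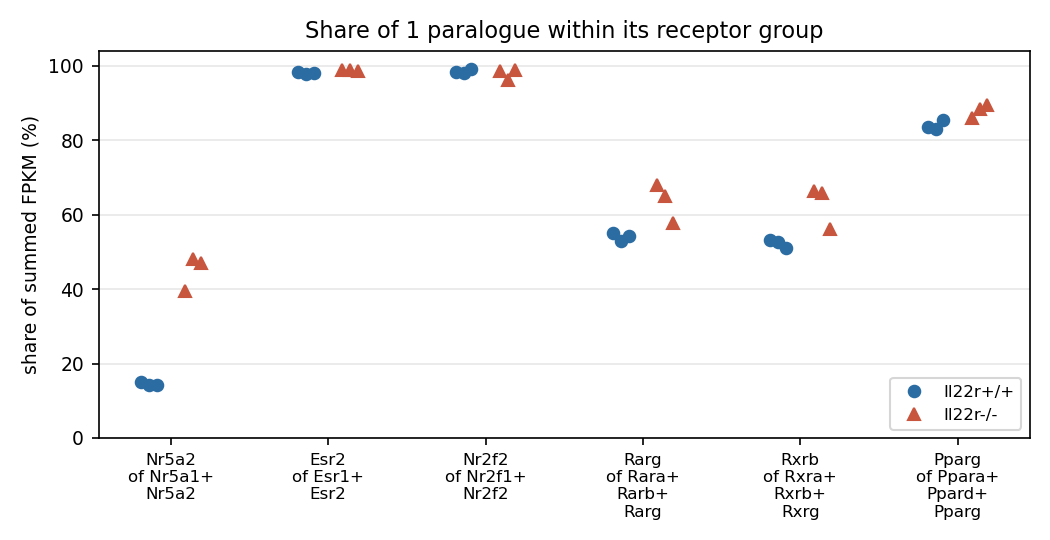
Share (%) of the summed FPKM of its receptor group that 1 paralogue held in each library, circles for Il22r+/+ and triangles for Il22r-/-. Nr5a2 held 14.1 to 15.1% of the NR5A level in Il22r+/+ and 39.5 to 48.0% in Il22r-/-, while Esr2 and Nr2f2 held over 96% in every library.

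The share plot covers 6 groups of paralogues. In 5 of them the libraries of the genotypes did not overlap (Nr5a2, Esr2, Rarg, Rxrb and Pparg), which in a two-sided exact permutation test gave p = 0.1, the smallest that 3 against 3 libraries allow, and 0.12 after Benjamini-Hochberg adjustment over the 6. For Nr2f2 the p was 0.7. This exact test could not reach 0.05 here.

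Among the sensors of lipids, bile acids and vitamin D, 1 rose, 1 fell and 5 of the 7 tested were not called. Nr1h4 (ENSMUSG00000047638, chr10:89454234-89533585) rose from 38.7 ± 4.11 to 59.8 ± 11.9 CPM (log2 change 0.63 ± 0.14, edgeR adjusted p = 0.00485). Ppard, the broadly expressed fatty acid receptor, fell from 40.2 ± 3.04 to 25.7 ± 1.16 CPM (log2 change -0.65 ± 0.09, edgeR adjusted p = 0.000264), with no overlap. Pparg and Nr1h2, more abundant per length, had log2 changes of -0.04 ± 0.13 and -0.03 ± 0.07 that were not called and turned above 0 with library size alone (0.06 and 0.07). Vdr, the vitamin D receptor, had 1.87, 1.67 and 1.60 CPM and then 2.57, 2.45 and 2.96 CPM. Its groups did not overlap, yet the log2 change of 0.63 ± 0.25 was not called (edgeR adjusted p = 0.0612), and it passed with library size alone (0.0335) and with the stricter filter (0.0408). Nr1h3 (LXR alpha, which macrophages also express) had 4.04, 2.21 and 3.38 CPM and then 2.21, 1.60 and 2.10 CPM. It was not called (-0.70 ± 0.29, edgeR adjusted p = 0.0696) and passed without Il22r+/+ replicate 2 (0.0307). Ppara, the receptor of fatty acid oxidation in liver, was read 16, 30 and 1 times in the controls against 33, 39 and 18 times without Il22r and was not called. The xenobiotic receptors Nr1i2 and Nr1i3 had 12 and 7 reads in all 6 libraries, and 74.9% of the Nr1i3 exon length lies under Tomm40l on the other strand.

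The clock receptors split. REV-ERB proteins (Nr1d1, Nr1d2) repress and ROR proteins activate the same elements in clock genes. Rorb (ENSMUSG00000036192, chr19:18930605-19111196), known mainly from brain, retina and bone, had 1.11, 0.477 and 0.0592 CPM in Il22r+/+ and 8.30, 3.52 and 5.32 CPM in Il22r-/-. Its log2 change was 3.36 ± 0.62 (edgeR adjusted p = 0.00276), and 4.38 without Il22r+/+ replicate 1, which held 19 of the Il22r+/+ reads against 8 and 1 in the others. Its level in Il22r-/- was 0.520 ± 0.216 FPKM. Rora, the abundant member of the pair, fell from 29.4 ± 4.20 to 21.9 ± 1.33 CPM (log2 change -0.42 ± 0.12, edgeR adjusted p = 0.014). Its call was lost without Il22r+/+ replicate 1 (0.0772) and in limma on unfiltered FPKM (0.0976). Nr1d2 rose from 40.4 ± 2.34 to 47.9 ± 4.17 CPM with an edgeR adjusted p of 0.046. That call was lost in 10 of 16 alternatives, among them DESeq2 (0.0941), DESeq2 size factors in edgeR (0.0563), the 3 limma fits on FPKM (0.0836 to 0.154), the replicate block (0.0824) and the fits without Il22r+/+ replicate 1, 2 or 3 or Il22r-/- replicate 1 (0.167, 0.122, 0.0593 and 0.196). Nr1d1 had 27.1 ± 1.20 and 24.8 ± 2.91 CPM and was not called.

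Of the NR4A receptors, immediate early genes that cyclic AMP induces within the ovulatory response, Nr4a1 and Nr4a2 rose. Nr4a1 (NUR77) had 31.3, 32.3 and 34.5 CPM in Il22r+/+ and 36.0, 44.4 and 52.1 CPM in Il22r-/- (log2 change 0.43 ± 0.12, edgeR adjusted p = 0.0165). Its call was lost without Il22r+/+ replicate 1 or 2 or Il22r-/- replicate 2 (0.0711, 0.0584 and 0.0531) and in the limma fits on FPKM (0.0518 to 0.12), and its log2 change was 0.28 without Il22r-/- replicate 3. Nr4a2 (NURR1) had 4.91, 4.83 and 5.03 CPM and then 7.46, 7.68 and 8.54 CPM (0.68 ± 0.16, edgeR adjusted p = 0.00562). Neither gene overlapped between the genotypes. Nr4a3 had 1.30 ± 0.324 and 2.02 ± 0.713 CPM and was not called (edgeR adjusted p = 0.179).

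Among the COUP-TF receptors and the remaining orphans, only Nr2f6 of 5 tested genes was called. Nr2f6 (EAR2, a COUP-TF relative that acts as a repressor, ENSMUSG00000002393, chr8:71374123-71381960) had 71.5, 58.8 and 64.2 CPM in Il22r+/+ and 36.5, 35.9 and 41.9 CPM in Il22r-/-, a log2 change of -0.77 ± 0.10 (edgeR adjusted p = 0.00012). Over 54.4% of its exon length it lies opposite Ocel1, which had 16.1 and 15.0 CPM and was not called (edgeR adjusted p = 0.506), and without the strand setting reads there cannot be told apart. Nr2f2 (COUP-TFII, a marker of ovarian stroma and theca) had 29.1, 25.0 and 24.0 CPM and then 29.6, 24.9 and 30.8 CPM. These ranges overlapped and Nr2f2 was not called (edgeR adjusted p = 0.405). The stromal list, with 2 of 7 tested genes lower and 1 higher, had a lower sum in every Il22r-/- library. A link between that sum and Nr2f2 was not tested. Nr2f1, the paralogue of Nr2f2, had 12 and 19 pooled reads. Nr2c1 and Nr2c2, the testicular receptors TR2 and TR4, had log2 changes of 0.21 ± 0.10 and 0.04 ± 0.08 that were not called, and Nr2c1 passed with library size alone (adjusted p = 0.0209). Genes of the other strand, mostly Mrps25, overlap 31.2% of the Nr2c2 exon length. Nr6a1 (GCNF, the germ cell nuclear factor) had 12.1 ± 1.54 and 11.6 ± 1.28 CPM and was not called, and the liver receptor Hnf4a had 2 reads, both in Il22r-/- replicate 1.

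Proteins that work with the receptors were read from lists of coactivators, corepressors and chaperones. Beside them stand the 23.6% of all tested genes that rose and the 22.1% that fell. Of 20 tested coactivators, 10 rose and 1 fell, with a median log2 change of 0.23 (0.03 over all genes). The PGC-1 genes Ppargc1a and Ppargc1b, partners of ERR and PPAR proteins in mitochondrial gene control, had the largest changes at very low levels. Ppargc1a rose from 0.177 ± 0.00179 to 0.893 ± 0.0801 CPM (log2 change 2.28, edgeR adjusted p = 0.00225) and Ppargc1b from 0.316 ± 0.182 to 0.968 ± 0.112 CPM (1.59, edgeR adjusted p = 0.0216). Ppargc1b lost its call without Il22r+/+ replicate 1 or Il22r-/- replicate 2 (0.0700 and 0.0584) and in limma on unfiltered FPKM (0.0848). Ncoa7 rose from 33.3 ± 3.79 to 58.6 ± 2.86 CPM, and the acetyltransferase gene Kat2b fell from 139 ± 6.07 to 97.1 ± 7.41 CPM. Of 19 tested corepressors, 4 rose and 3 fell, with a median of 0.02. The hairless gene Hr, a partner of the thyroid hormone receptor, fell from 13.1 ± 0.447 to 5.66 ± 1.59 CPM. Nrip1 (RIP140, needed for ovulation in mice) rose from 65.3 ± 4.66 to 98.3 ± 13.4 CPM and Lcor from 20.6 ± 4.43 to 30.4 ± 3.30 CPM, the latter call lost in limma on unfiltered FPKM (0.103). Of the 12 genes for chaperones that hold steroid receptors ready for ligand, 9 rose and 1 fell, with a median of 0.32, again beside 23.6% and 22.1% of all genes. Fkbp4, Fkbp5 and Ppid rose with log2 changes of 0.57, 0.49 and 0.49, and Stub1, a ubiquitin ligase that shares 42.3% of its exon length with Jmjd8, fell (-0.42).

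Genes known as targets of single receptors were read from 11 lists holding 132 genes, 7 of them members of the superfamily. Of the 97 tested, 27 rose and 33 fell (61.9%, beside 45.7% of all genes), and a list's count does not show that its receptor acted on it. Liver X receptor targets fell more often than they rose, 6 lower and 1 higher of 13, with a median of -0.77. Among them the lipase gene Lpl fell from 636 ± 25.2 to 181 ± 34.8 CPM. The desaturase gene Scd1 fell from 175 ± 7.43 to 67.4 ± 19.7 CPM. The cholesterol exporter gene Abca1 fell from 439 ± 24.9 to 193 ± 47.9 CPM and Srebf1 from 197 ± 10.8 to 100.3 ± 18.3 CPM. Of the LXR genes, neither Nr1h2 nor Nr1h3 was called. Nr1h3, itself on this list, was lower without overlap (log2 change -0.70, edgeR adjusted p = 0.0696). PPAR targets were split, 5 higher and 2 lower of 14. The fatty acid transporter gene Cd36 rose from 8.29 ± 1.97 to 32.3 ± 5.60 CPM. Fabp4, also a macrophage gene, was 0.196 ± 0.243 CPM in the controls and rose to 1.59 ± 0.446 CPM. Its log2 change of 2.97 became 4.58 when Il22r+/+ replicate 1 was left out.

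**Figure D5:**
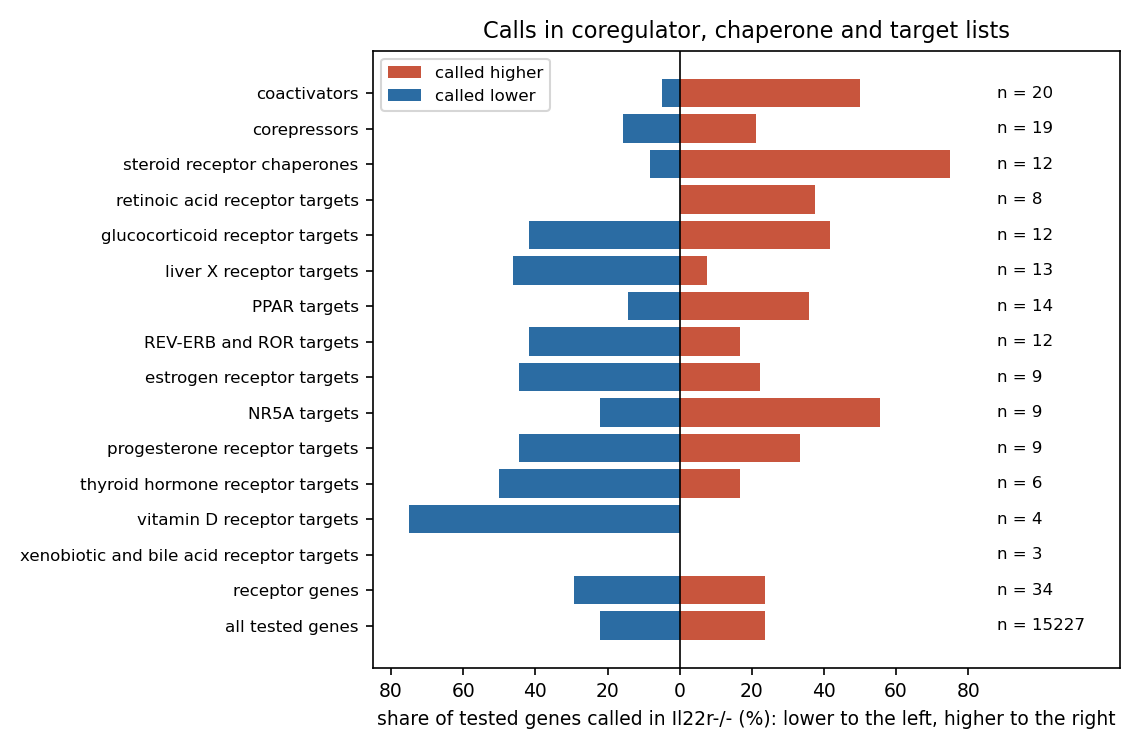
Share of tested genes called lower (bars to the left) and higher (bars to the right) in Il22r-/-, in % of the tested genes of each list, with the number tested at the right. Of the receptor genes 10 of 34 were lower and 8 higher, close to the bar of all 15227 tested genes, and the chaperone list has 9 of 12 higher.

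NR5A targets had 5 higher and 2 lower of 9, with a median of 1.20. Fshr, Amhr2 and Cyp11a1 rose with log2 changes of 4.50, 1.47 and 1.33, and the list's falling genes included Nr0b2, described above. The size of the Fshr change is uncertain, as Fshr had no value under the stricter filter of at least 10 reads in every library. Over the 15 alternatives that gave a value it was called higher in each, with log2 changes of 1.67 to 5.02. Glucocorticoid receptor targets split 5 and 5 of 12. The kinase gene Sgk1 rose from 115 ± 10.4 to 212 ± 28.6 CPM and the metallothionein gene Mt1 from 121 ± 10.2 to 244 ± 67.9 CPM. At a very low level, Cdkn1c rose from 0.177 ± 0.101 to 1.73 ± 0.841 CPM (log2 change 3.21). It shares 30.6% of its exon length with Gm44732 and had no value under the stricter filter. Mt2, with 73.5% of its exon length under Gm45774, fell (-3.58, edgeR adjusted p = 0.0342), but its size was -7.98 without Il22r-/- replicate 3, and the call was lost with DESeq2 (0.112), with no filter (0.13), with the replicate block (0.0713) and without Il22r+/+ replicate 1 or 2 or Il22r-/- replicate 1 or 2 (0.0641, 0.0792, 0.102 and 0.0532). Retinoic acid targets had 3 of 8 higher, and the other 5 were not called. Dhrs3 and Tgm2, the latter with 21.8% of its exon length shared with other genes, rose with log2 changes of 0.78 and 0.75. Leaving out single libraries ended both calls. Dhrs3 was lost without any 1 of the Il22r+/+ libraries or Il22r-/- replicate 1, and Tgm2 without any 1 of the Il22r+/+ libraries or Il22r-/- replicate 2, with adjusted p-values over the alternatives of up to 0.149 and 0.204. The log2 change of Dhrs3 was 0.39 when Il22r-/- replicate 1 was left out, and that of Tgm2 was 0.39 when Il22r-/- replicate 2 was. The replicate block also ended the call of Tgm2 (0.0745).

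Clock targets of REV-ERB and ROR had 2 higher and 5 lower of 12. Nfil3, a repressor gene of the clock's second loop, rose from 13.2 ± 0.679 to 29.9 ± 2.15 CPM. Dbp and Per2 fell from 12.3 ± 1.23 to 6.51 ± 1.75 CPM and from 15.0 ± 1.28 to 9.38 ± 1.00 CPM. Npas2 fell with an edgeR adjusted p of 0.0405, lost in 9 of 16 alternatives (up to 0.172), among them the replicate block (0.0776) and the fits without Il22r+/+ replicate 1 or 3 or Il22r-/- replicate 1 or 2 (0.15, 0.0792, 0.125 and 0.0737). Estrogen receptor targets had 2 higher, Pgr among them, and 4 lower of 9. The binding protein gene Igfbp4 fell from 1427 ± 106 to 384 ± 29.1 CPM, Ccnd1 from 37.2 ± 1.45 to 10.3 ± 4.56 CPM and Ctsd from 729 ± 28.7 to 388 ± 13.4 CPM. Other genes overlap 23.4% of the Ccnd1 and 34.4% of the Ctsd exon length. Progesterone receptor targets had 3 higher and 4 lower of 9, with Rgs2 rising from 6.03 ± 0.156 to 31.3 ± 4.26 CPM. The protease gene Ctsl, with 26.85% of its exon length shared with other genes, rose from 571 ± 65.1 to 887 ± 168 CPM. Prkg2 and Cd55 fell (log2 changes -1.43 and -1.02). Thyroid hormone targets had 1 higher (Me1, 0.59) and 3 lower of 6, namely Hr, Bcl3 and the receptor gene Thrb. Of 4 tested vitamin D targets 3 fell, namely Spp1, Klf4 and Lrp5. Spp1 (osteopontin), with 18.75% of its exon length shared with Gm42793, fell from 345 ± 32.5 to 36.1 ± 11.2 CPM. Of the 10 xenobiotic and bile acid targets listed, 7 were not tested. Among those, 4 had no read (Cyp3a11, Ugt1a1, Slc51b and Fgf15), so the list covers few targets. Nr0b2, described above, was not on it. None of the 3 tested genes was called by edgeR, and 1 had an unadjusted p under 0.05. That gene, the drug exporter gene Abcb1b (47.1 ± 5.36 and 37.4 ± 6.67 CPM, edgeR adjusted p = 0.0627), passed with DESeq2 (0.039), with DESeq2 size factors in edgeR (0.0456), with no filter (0.00511), with the replicate block (0.044) and without Il22r-/- replicate 1 (0.00481). Abcb1a had 2.52 ± 0.396 and 3.52 ± 0.663 CPM (edgeR adjusted p = 0.136).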

How the data were processed

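The authors deposited raw read counts per gene for 6 libraries, 3 per genotype. The submitters' processing notes name featureCounts, version 1.5.0-p3, and mm10. No source used here names the aligner or the strand setting. The authors also deposited FPKM values, used here for levels between genes and as an alternative in limma.

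Genes passing filterByExpr were normalised by TMM, then compared with edgeR 4.0.16 (robust quasi-likelihood fit, genotype the only term), with Benjamini-Hochberg adjustment over all tested genes. CPM are per TMM-scaled library, values are means ± SD over 3 libraries, and log2 changes carry the fit's standard error. Intervals on pooled reads are exact, at the 95% level, and cover counting error only. DESeq2 1.42.0 and limma 3.58.1 (R 4.3.3) served as alternatives. The test was also run on simulated counts that shared the same spread between replicates for all genes and both genotypes. The outcome of that run is not reported here. Replicates of a genotype differed by more than sampling noise, with a chi-square statistic per gene of at least 4.66.

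The members, lists and tests were chosen with earlier results of these data known. Values per library were given for members called with at least a 2-fold change, the 5 most abundant, and a set of steroid and follicle receptors. Up to 4 called genes of each list were named by size of change, and some genes that this rule picks are not reported here. Esrra, Vdr, Nr1h3, Rxra, Rxrb, Rara, Nr2f6, Nr4a2 and Ppara were given per library after their values were seen. Exon overlaps came from GENCODE M21.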

Additional observations from a re-analysis of the deposited data

How the results depend on the processing

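The direction of every called receptor gene was the same in all alternatives that gave it a value, and 13 of the 18 calls held in each of them. Called members numbered 15 to 20 over the other settings and 13 to 19 when 1 library was left out (7 to 11 lower, 6 to 9 higher). With library size as the only scaling 10 members were higher and 8 lower, and 63.6% of all calls were higher instead of 51.6%. The count of called coregulators was 18 and fell to 10 in limma on unfiltered log2(FPKM + 1). The STAT letters stood in 0 member windows in their strict form and in 6 in the relaxed form. Members that were not called and lay near 0 changed sign: with library size alone Pparg had a log2 change of 0.0628, Nr1h2 0.0749 and Nr6a1 0.0310, and over the fits that left out 1 library Pparg ranged from -0.14 to 0.0927, Nr1h2 from -0.0774 to 0.0097, Nr6a1 from -0.17 to 0.0381 and Nr2c2 from -0.0038 to 0.0829. Pgr and Rorb had no value under the stricter filter.

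Same-numbered libraries did not vary together (correlations of their deviations 0.04, -0.07 and -0.06 for replicates 1 to 3). With so few libraries, such values cannot show whether same-numbered libraries were prepared as pairs. With a replicate block 16 members were called, and all genes called numbered 6405 instead of 6963. It ended the calls of Nr1d2, Rarg, Mt2, Npas2 and Tgm2, made that of Abcb1b and changed no other among the genes named. Depth limits the 12 untested members: at 0 reads the data allow up to 0.0591 CPM in pooled Il22r+/+.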
